A study of Mus musculus with 12 samples.

Results

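The cytosolic ribosome is built from ribosomal RNA and a large set of small proteins, and the genes for these proteins are described here. The 80 genes were taken by symbol alone, as rows named Rpl or Rps with a number and at most 1 closing letter a, x, y or l, together with Rplp0, Rplp1, Rplp2 and Rpsa. They are 80 of the 23309 genes in the table, 49 of the large 60S subunit and 31 of the small 40S subunit. The kinases that phosphorylate Rps6 were left out by the rule. The symbols matched ribosomal proteins throughout, although 3 of the 80 are paralogs with means under 1 FPKM.

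RNA-seq was done on mouse myeloid progenitors, 2 libraries in each of 6 groups and 12 in all. Bone marrow CD117+ cells were immortalized with a retrovirus for an estrogen receptor fusion to HoxB8, which keeps them immature while estradiol (E2) is present, in medium with IL-3. Wild-type cultures and HMGN1-OE cultures, from mice with a transgene for human HMGN1 on a C57BL/6 background, were sampled at 0, 36, and 96 h after E2 was withdrawn. All groups therefore carry the HoxB8 fusion. The paper calls the libraries biological duplicates, but the sources do not say whether they came from separate mice. The p-values rest only on spread between these libraries, which on the deposited scale is pooled over genes of like level. Values are FPKM (fragments mapped per kilobase of transcript, scaled to the size of the library). The authors normalized them to ERCC RNAs, which were added to the RNA extracted from a fixed number of cells. A level is thus meant per cell, and fewer cells that express a gene cannot be told apart from less RNA in each cell. Libraries are named by genotype, time, and the digit 0 or 1 that the table gives. At 0 h mouse Hmgn1 was at 85.7 and 141 FPKM in wild-type and at 201 and 97.6 FPKM in HMGN1-OE libraries, which overlapped, and at 96 h it was at 4.71 to 20.7 FPKM in all 4. The human transgene was not analysed here.

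Ribosomal protein mRNAs are among the most abundant in growing cells, and their synthesis takes a large part of a proliferating cell's transcription. Most of them begin with a run of C and T at the start of the transcript, the 5′ terminal oligopyrimidine (TOP) motif, through which mTORC1 and Larp1 control their translation. In hematopoiesis they are known for Diamond-Blackfan anemia, in which a lost copy of one such gene causes red cell failure, and RPS14 is known for its part in the 5q- syndrome. Neutrophil precursors stop dividing as they mature, and their ribosome content falls.

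The start of transcription is shown for some genes as examples of the TOP motif, chosen for having a pyrimidine run there. Each window holds 12 bases before the annotated start and 14 from it on, from RefSeq on build GRCm38.p6, in the gene's own direction, with the run of pyrimidines over the start in capitals.
Rpl35, chr2:39005118-39005143, minus strand: ccccgCCCTTTCCTCTTTCTCTCgaa
Rps10, chr17:27635231-27635256, minus strand: ccgcgcacgCCCCTTCCTTTCCagcc
Rps18, chr17:33955652-33955677, minus strand: gtcacttccgCTCTCTCTTCCacagg
Rpl38, chr11:114668568-114668593, plus strand: ggaagcctcgTTCTTTCCCCgttctc
Rplp2, chr7:141447639-141447664, plus strand: gtcagcgTCTTCCTTTCgccgccgga
Rps6, chr4:86857354-86857379, minus strand: cggaagtcgggCCTCTTTTTCgtgac
Rps9, chr7:3704029-3704054, plus strand: gccttgTCTCTCTTTgtctcgggcct
In most of the genes with a promoter entry the annotated start does not fall in such a run, and Rpl10 is shown as an example.
Rpl10, chrX:74270804-74270829, plus strand: gttacagtggaagataggccgcctat

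Of the 80 genes, 60 had an entry in the RefSeq promoter table. A run of at least 5 pyrimidines lay over an annotated start in 20 of them (33.3%), against 11.8% of all 27025 genes with a promoter. An unbroken run of 8 pyrimidines within 10 bases on either side of a start was found in 33.3% against 8.71%. In the same window, CTTTC on the sense strand was present in 18.3% against 2.91% of all and 2.77% of the tested genes, and CTTCC in 15% against 5.02% and 7.48%. Over the whole window of 250 bases before to 50 after the start, on either strand, CCGGAAG, a core of ETS factor motifs, was present in 41.7% against 9.93% of all genes and 21.4% of the tested genes. GGGCGG, the GC box, was present in 60% against 38.2% of all and 68.7% of the tested genes, and TATAAA in 10% against 15.7% and 8.44%. Pyrimidine runs may hold CTTTC or CTTCC, and CCGGAAG on the other strand holds CTTCC. A match describes the letters and not a site.

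The test took genes that were at 1 FPKM or more in 2 or more libraries, which left 11516 genes and 78 of the 80. The 2 untested genes are the retrogene paralogs Rpl10l and Rpl39l, known from testis, which were listed between 0.0967 and 0.105 FPKM in all 12 libraries. The muscle paralog Rpl3l passed with 0.403 to 1.35 FPKM.

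Most of the genes were abundant. Among all 80, a mean over the 12 libraries of at least 1000 FPKM was found for 60 genes, 15 lay between 100 and 1000, and 5 were under 100, of which Rpl3l, Rpl10l, and Rpl39l were 3. Of the 100 genes with the highest mean in the whole table, 53 were ribosomal protein genes. Rplp1, a stalk protein that recruits elongation factors, was highest with a mean of 5314 FPKM, followed by Rpl41, the smallest ribosomal protein, with 5079 FPKM, and Rps29, with 4250 FPKM. The lowest above Rpl3l were Rpl26 with 39.5 FPKM and Rpl30 with 96.2 FPKM. The genes lie on 19 chromosomes, 4 of them on X. Their mean level had a Spearman correlation of -0.15 with transcript length over 78 genes, which share the libraries, the alignment, and the length term of FPKM.

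The order of the genes was nearly the same in every library. Spearman's rho over the 80 genes was between 0.926 and 0.998 for the pairs of libraries. In most genes the level relative to the median of the 78 tested ribosomal protein genes varied little, and the typical gene's highest relative level over the 12 libraries was 1.25 times its lowest (median over 78 genes). Rps23, at 158 to 170% of that median, and Rps20, at 145 to 157%, varied least. Rpl26, Rpl34, and Rpl30 varied most among genes above 1 FPKM and are described with their copies further on.

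**Figure D1:**
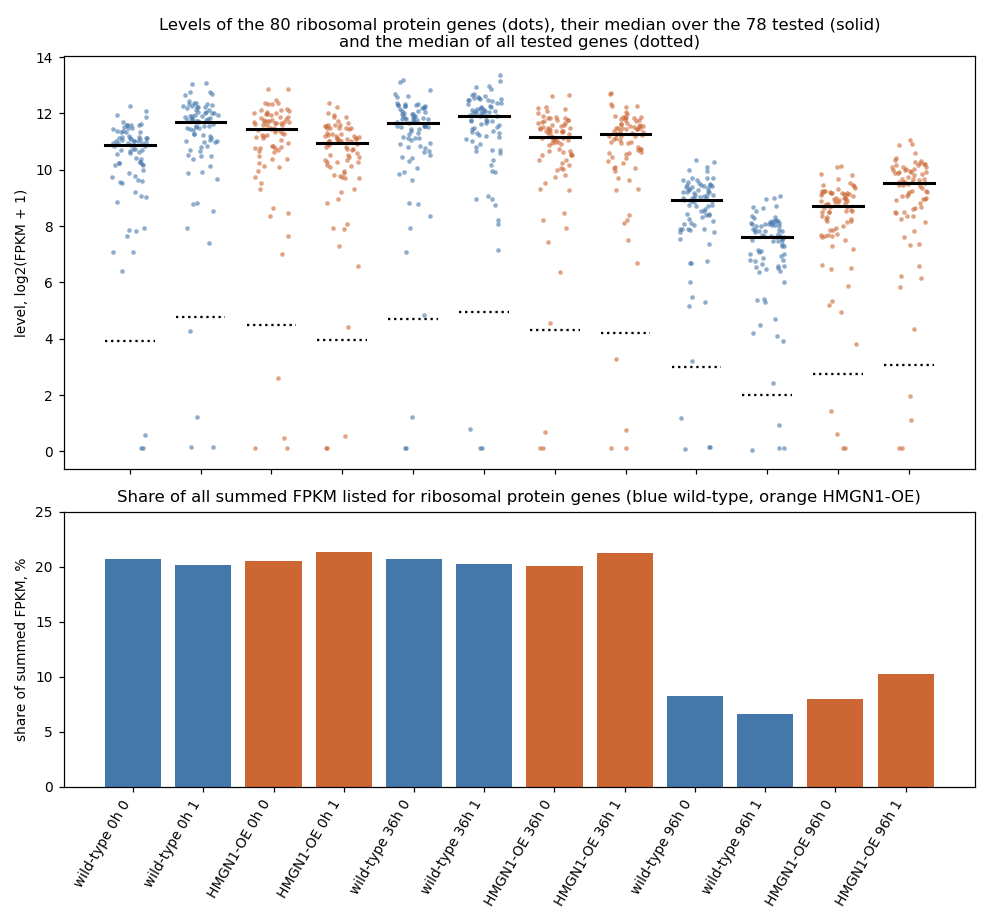
Upper panel, log2(FPKM + 1) of the 80 genes in each of the 12 libraries, with the median of the 78 tested genes as a solid bar and of the 11516 tested genes as a dotted bar. Lower panel, the percentage of all summed FPKM held by the 80 genes. The 8 libraries at 0 and 36 h lie between 20.1 and 21.3%, and the 4 at 96 h between 6.60 and 10.3%.

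Ribosomal protein genes took a large and steady share of all FPKM at 0 and 36 h, and a smaller one at 96 h. At 0 h their share of the summed FPKM was 20.4% ± 0.37 (SD, n = 2) in wild-type and 20.9% ± 0.61 (SD, n = 2) in HMGN1-OE cells. At 36 h it was 20.4% ± 0.32 (SD, n = 2) and 20.7% ± 0.80 (SD, n = 2). At 96 h it was 8.29 and 6.60% in the 2 wild-type libraries and 7.98 and 10.3% in the 2 HMGN1-OE libraries. All 4 libraries at 96 h lay below all 8 earlier ones, and the genotypes overlapped. With 2 libraries against 2 the smallest p of an exact permutation test is 0.333, and no p is given for a share. A single factor per library would leave the share as it is, but the loess step depends on the level and may change it, and it is set by all other genes as well. At 96 h the 10 highest genes held 32.2 to 38.1% of the summed FPKM against 6.65 to 7.5% before, led by S100a8, a calcium-binding protein of neutrophils. S100a9, its partner, is listed at 0.0511 FPKM in wild-type library 0 at 96 h and at 26546 to 73461 FPKM in the other 3, so that the share in that library has a smaller total under it.

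Markers placed the libraries as labelled. The sum of 10 granulocyte and monocyte progenitor markers, all present, was between 7226 and 26320 FPKM at 0 and 36 h and between 206 and 3021 at 96 h. The sum of the 11 neutrophil markers in the table was between 211 and 2961 FPKM before and between 67019 and 172998 at 96 h. Of the defining markers of other lineages, Ms4a1, Cd3e, and Cd4 were at or near 0.1 FPKM everywhere, and the erythroid gene Epor stayed under 0.25 FPKM. The fall of the ribosomal protein genes moved with this change of markers, and the part of cell make-up in it was not tested.

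The comparison of 96 h with 0 h asks how maturation changed these genes in each genotype. In wild-type cells 77 of the 78 tested genes were lower, at a median of 12.4% of their start, and in HMGN1-OE cells 77 of 78 were lower, at a median of 23.9%. The median log2 fold change was -3.01 in wild-type and -2.07 with HMGN1-OE, against -1.75 and -1.28 over all 11516 tested genes. Each of the 77 passed the test in each genotype (limma, adjusted p under 0.05), where 77.2% of all tested genes were called lower in wild-type and 62.4% with HMGN1-OE. Rpl3l was the exception in both, with a log2 fold change of 0.16 in wild-type (adjusted p = 0.639) and 0.34 with HMGN1-OE (adjusted p = 0.344). The HMGN1-OE calls rest partly on single libraries: 14 of 78 genes were called lower without library 0 of HMGN1-OE at 96 h, where 30% of all tested genes were, and 30 without library 0 of HMGN1-OE at 0 h, where 29.6% were. With no filter on low values 28 were called in HMGN1-OE cells, as were 24.8% of the 23309 genes then tested. In wild-type cells 76 or 77 were called whichever library was left out, but the median was 7.86% of the start without library 0 at 96 h and 19.6% without library 1. With HMGN1-OE it was between 18.1 and 30.9%. Without overlap, the libraries at 96 h lay below those at 0 h for 76 genes in wild-type and 77 with HMGN1-OE, as for 80.9 and 82.8% of all tested genes. With HMGN1-OE the remaining gene, Rpl3l, lay above without overlap, as did 7.95% of all tested genes.

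Since most genes of the table fell on the spike-in scale, the fall was also measured relative to the other genes, with each library centred on the median of its tested genes. The ribosomal protein genes then had a median log2 fold change of -1.16 in wild-type and -0.76 with HMGN1-OE, to 44.6 and 59.2% of their start. On this scale 76 genes were called lower in wild-type, where 33.8% of all tested genes were, and 67 in HMGN1-OE cells, where 32.5% were. Rpl3l was called higher in both, as were 36.5 and 30.9% of all tested genes, but near 1 FPKM its log value can hardly drop while centring adds the offset of the library, so that this call says nothing of the gene. The split of all tested genes changed from 496 higher and 8893 lower to 4202 higher and 3889 lower in wild-type cells, and from 585 and 7188 to 3560 and 3739 in HMGN1-OE cells. After quantile normalization 73 genes were called lower in wild-type, where 39.6% of all tested genes were, and 66 with HMGN1-OE, where 36.8% were.

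Named genes show the size of this change. Rplp1 was at 4925 and 8667 FPKM in the wild-type libraries at 0 h and at 1089.9 and 501 at 96 h. With HMGN1-OE it was at 7492 and 5326 FPKM at 0 h and at 921 and 1890.1 at 96 h. Every library at 96 h lay below every library at 0 h in both genotypes. Its log2 fold change was -3.14 (SE 0.64, adjusted p = 3.10e-06) in wild-type and -2.26 (SE 0.64, adjusted p = 0.00122) with HMGN1-OE. The other stalk proteins were close to it: Rplp0, which anchors the stalk and often serves as a reference gene, changed by -2.90 and -1.95, and Rplp2 by -2.84 and -1.93.

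Rps6, the substrate of the S6 kinases in the small subunit, was at 1229 and 2381 FPKM in wild-type cells at 0 h and 338 and 121 at 96 h. In HMGN1-OE cells it was at 1981 and 1297 FPKM at 0 h and 301 and 493 at 96 h. The libraries of the 2 times did not overlap, and the log2 fold change was -3.07 (SE 0.62, adjusted p = 2.80e-06) in wild-type and -2.05 (SE 0.62, adjusted p = 0.00243) with HMGN1-OE. Rpl5 and Rpl11, which bind 5S rRNA and, outside the ribosome, the p53 regulator Mdm2, fell, with log2 fold changes of -3.26 and -3.23 in wild-type and of -2.31 and -2.30 with HMGN1-OE. Rps14, an assembly protein of the 40S head and platform region, was at -3.05 in wild-type and -2.27 with HMGN1-OE. Rpsa, also known as the laminin receptor precursor, was at -2.82 and -1.89. Rps3, at the mRNA entry of the 40S subunit, was at -2.85 and -1.91, and the X-linked Rps4x at -3.02 and -2.11.

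In the large subunit, Rpl10, which joins late at the tRNA sites, had a log2 fold change of -3.01 in wild-type and -2.23 with HMGN1-OE. Rpl38, known from mouse skeletal patterning, was at -3.16 and -2.22. Rpl13a, of the 60S surface, was at -2.92 and -1.93, Rpl39, at the exit tunnel, at -2.99 and -1.91, and Rpl41 at -2.93 and -2.05. These genes thus fell by nearly the same factor within a genotype although their levels differ. The median log2 fold change was -3.02 for the 47 tested 60S genes and -2.92 for the 31 40S genes in wild-type cells, and -2.19 and -2.04 in HMGN1-OE cells. Of the 19 genes known from Diamond-Blackfan anemia, all 19 fell in both genotypes, with medians of -3.02 and -2.07, as did nearly all ribosomal protein genes and, by the same test, 77.2 and 62.4% of all tested genes.

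The change from 0 to 36 h was small by comparison. In wild-type cells 77 of 78 genes were higher at 36 h, by a median of 0.52 (log2) against 0.47 for all tested genes, and 28 genes had no overlap between the libraries where 25.7% of all tested genes did. None was called, where limma called 0.617% of all tested genes in either direction, and none had an unadjusted p under 0.05. Centred on the median gene, the median was 0.04, and without wild-type library 0 at 0 h the median on the deposited scale was 0.08 and without library 1 it was 0.95, when 1 gene was called. In HMGN1-OE cells the median was 0.05 against 0.06, with no gene called of the 1.8% called in the table and none at an unadjusted p under 0.05. It was -0.21 and 0.32 when either HMGN1-OE library at 0 h was left out.

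Between 36 and 96 h the fall was called for 77 of 78 genes in each genotype. The median was -3.52 in wild-type, where 86.3% of all tested genes were called lower, and -2.16 in HMGN1-OE cells, where 64.9% were. The 77 genes were lower in every library at 96 h than at 36 h in both genotypes, as were 90.4 and 87.6% of all tested genes. Leaving aside Rpl26, Rpl30, Rpl34, and Rpl3l, the change was lowest for Rpl22 and highest for Rps27a, -4.23 and -2.96 in wild-type and -2.54 and -1.57 with HMGN1-OE. Centred on the median gene the medians were -1.20 and -0.82, with 76 and 68 genes called lower, as were 33.7 and 32.3% of all tested genes. Without library 0 of HMGN1-OE at 96 h, 23 genes were called in HMGN1-OE cells, where 30.8% of all tested genes were. In both genotypes, then, the fall lay between 36 and 96 h, while the share at 36 h was that at 0 h.

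Other genes of the translation apparatus, from lists chosen by function, fell as well, on the deposited scale, where 77.2% of all tested genes were called lower in wild-type and 62.4% with HMGN1-OE. Of genes outside the symbol rule, Fau, which encodes a fusion that releases a ribosomal protein, had a log2 fold change of -2.08 (adjusted p = 0.0015) in wild-type and -1.38 (adjusted p = 0.0427) with HMGN1-OE. Gnb2l1, a scaffold on the 40S subunit, was at -3.29 and -2.34 and was called lower in both. Of the 76 mitochondrial ribosomal protein genes, 76 were called lower in wild-type and 75 with HMGN1-OE, with medians of -3.05 and -2.16. Of the 28 initiation factors, 27 and 26 were called lower, with medians of -3.10 and -2.19. Eif1, which scans for the start codon, was at -1.16 (adjusted p = 0.064) in wild-type cells. Of the 10 tested elongation and termination factors, 10 and 9 were called lower, with medians of -3.12 and -2.39, and Eef1a1, the carrier of aminoacyl-tRNA, was at -3.33 and -2.57.

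The genes that build ribosomes fell further. All 26 biogenesis genes were called lower in both genotypes, against the same 77.2 and 62.4% of all tested genes, with medians of -3.91 in wild-type and -2.93 with HMGN1-OE, 6.67 and 13.1% of their start. Npm1, the nucleolar protein that is mutated in many acute myeloid leukemias, was at -5.10 and -3.83 (log2). Myc, the transcription factor that drives ribosome production, was at -4.42 and -3.37, and Larp1, which binds TOP mRNAs, at -3.23 and -2.27. Of the 13 regulators of mTORC1 and TOP mRNAs, 12 were called lower in each genotype. Centred on the median gene, 7 were called lower and 2 higher in wild-type, with a median of -0.54, and 8 lower and 1 higher with HMGN1-OE, with a median of -0.68. On that scale 33.8% of all tested genes were called lower and 36.5% higher in wild-type, and 32.5 and 30.9% with HMGN1-OE. Mlst8, an mTORC1 subunit, was at -0.02 and 0.09 on the deposited scale. Of the 7 tested S6 kinase genes, 3 were called lower in wild-type and 1 with HMGN1-OE, with medians of -0.99 and -0.56, and centred on the median gene 6 of 7 were called higher in both, where 36.5 and 30.9% of all tested genes were. Rps6kb1, the kinase of the mTORC1 pathway, was the seventh and was called lower on both scales in both genotypes. No test of a difference between lists was made.

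**Figure D2:**
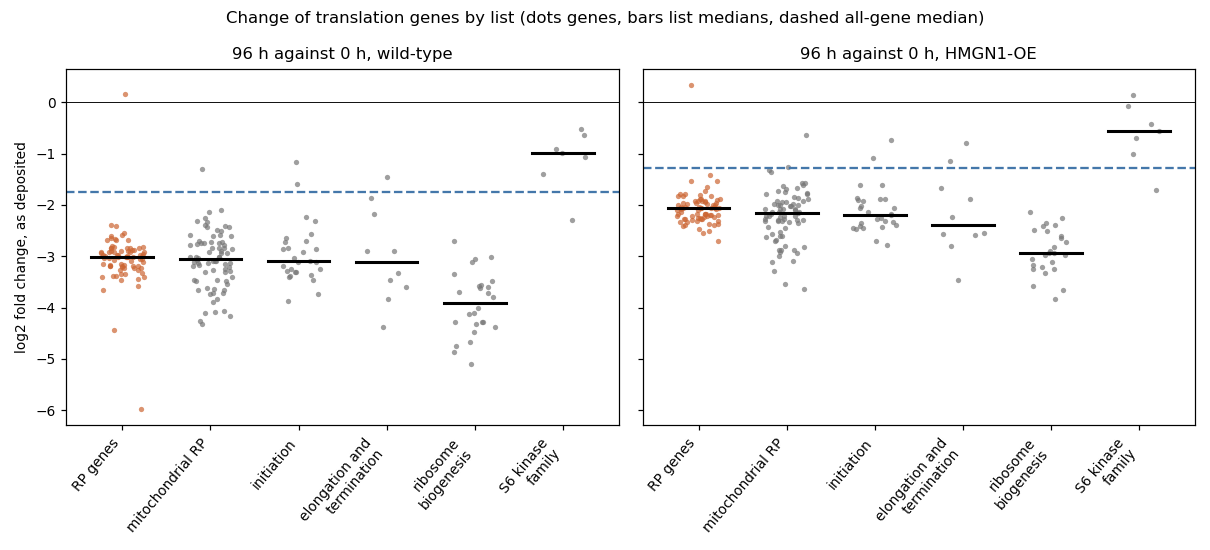
Log2 fold change from 0 to 96 h on the deposited scale, in wild-type (left) and HMGN1-OE (right) cells, of the 78 tested ribosomal protein (RP) genes and of 5 other lists. Dots are genes, bars list medians, and the dashed line the median of all tested genes, at -1.75 and -1.28. The RP genes lie close together at medians of -3.01 and -2.07, biogenesis genes lower at -3.91 and -2.93, and the S6 kinase genes have medians of -0.99 and -0.56, above the dashed line, with Rps6kb1 below it at -2.29 and -1.71.

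Within the ribosomal protein genes, some fell more and some less than the rest. For this the libraries were centred on the median of the ribosomal protein genes and the whole table was fitted again. In wild-type cells 12 genes were called higher and 15 lower at 96 h relative to that median, where 74.4% of all tested genes were called higher and 5.82% lower. In HMGN1-OE cells 9 were called higher and 14 lower, where 54.7% and 8.05% were. Of these, 9 were higher in both genotypes, 75% of the wild-type list and 100% of the HMGN1-OE list, and 11 were lower in both, 73.3 and 78.6% of the lists. The genotypes share no library here, but both changes come from a single fit with the same standard error per gene. The lists are therefore not separate tests. Over the 78 genes the 2 changes had a Spearman correlation of 0.86, given as a description since the genes share libraries and alignment.

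The genes that fell less in both genotypes were Rps27a, Rpl9, Rps29, Rps19, Rps9, Rps10, Rpl37a, and Rps25, of which 6 are 40S genes. The ninth, Rpl3l, did not fall, and at 0.403 to 1.35 FPKM its log2(FPKM + 1) has no room for a fall of that size, so that its place follows from the scale. Rps27a, which is made as a fusion with ubiquitin, was at 1851 and 3282 FPKM in wild-type cells at 0 h and at 725 and 293 at 96 h. In HMGN1-OE cells it was at 2438 and 2063 FPKM at 0 h and at 582 and 1029 at 96 h. It kept 18.7 and 34.5% of its start, and relative to the ribosomal protein median its change was 0.61 (SE 0.10, adjusted p = 0.000135) and 0.52 (SE 0.10, adjusted p = 0.000823). Rpl9 was at 0.49 and 0.52, Rps29 at 0.39 in both, and Rps19, the gene first tied to Diamond-Blackfan anemia, at 0.34 and 0.32. On the deposited scale, Rps27a changed by -1.53 in HMGN1-OE cells (adjusted p = 0.0242), but centred on the median gene its change there was -0.22 (adjusted p = 0.404) and after quantile normalization 0.09.

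The genes that fell more in both were Rpl30, Rpl22, Rpl3, Rpl36a, Rps27l, Rpl10a, Rpl36, Rpl14, Rpl4, Rpl5, and Rpl27a, and 10 of these 11 are 60S genes, as are 47 of the 78 tested. No test of this split by subunit was made. Rpl22, an RNA-binding protein that cells can do without and that lymphocyte development needs, was at 243 and 441 FPKM in wild-type cells at 0 h and at 38.5 and 16.1 at 96 h. In HMGN1-OE cells it was at 331 and 269 FPKM at 0 h and at 35.7 and 71.2 at 96 h. Relative to the ribosomal protein median it changed by -0.63 (SE 0.12, adjusted p = 0.000449) and -0.49 (SE 0.12, adjusted p = 0.00443). Rpl3, which reaches toward the peptidyl transferase centre, was at -0.56 and -0.46, and Rps27l, a paralog of Rps27 known as a p53 target, at -0.43 and -0.41. Rpl30, at -1.41 and -0.66, has an expressed near-identical copy, and its sum with it changed by -3.10 and -2.19 on the deposited scale, close to the medians of all ribosomal protein genes. Over the 78 genes the wild-type change had a Spearman correlation of -0.14 with transcript length, 0.12 with mean FPKM, and 0.17 with the GC content of the coding sequence.

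**Figure D3:**
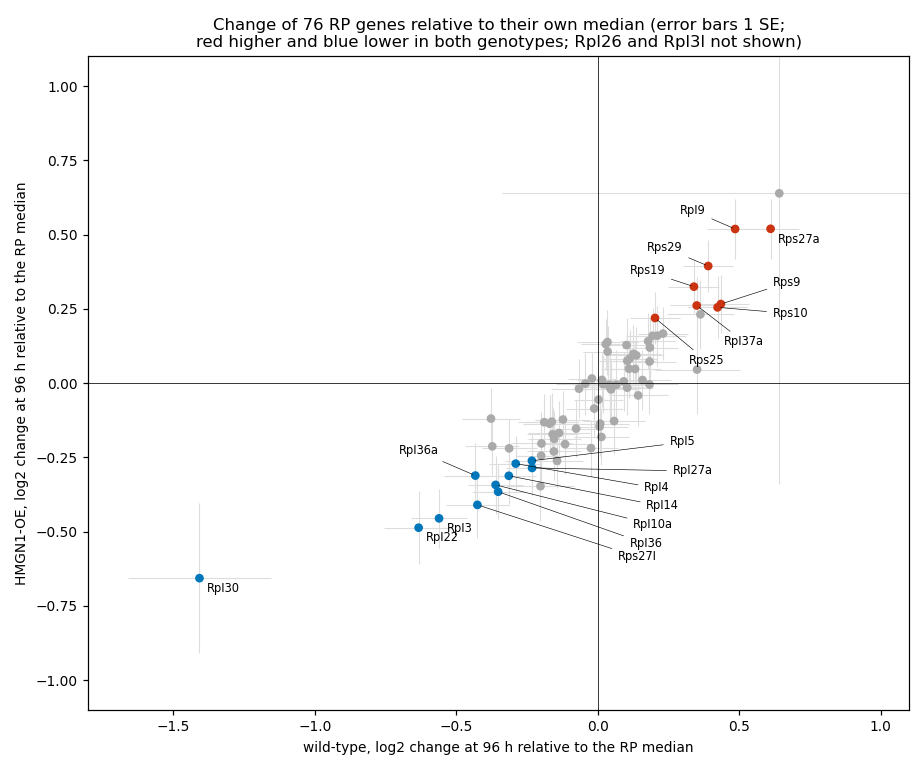
Change from 0 to 96 h relative to the median of the ribosomal protein genes in wild-type (horizontal) and HMGN1-OE cells (vertical), log2, for 76 genes with bars of 1 SE. Red genes were called higher and blue genes lower in both genotypes. Rps27a and Rpl9 stand at the upper right and Rpl30, Rpl22, and Rpl3 at the lower left. The grey point with long bars is Rpl34.

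HMGN1-OE cells were then compared with wild-type cells at each time. At 0 h the ribosomal protein genes were at a median log2 difference of -0.08, with 70 of 78 below wild-type, while all tested genes had a median of -0.12. At 36 h the median was -0.53 with 77 of 78 lower, and the median over all tested genes was -0.54. At 96 h it was 0.87 with 77 of 78 higher, and the median over all tested genes was 0.36. At each time 1 gene was called, Rpl26 lower at 0 h (log2 fold change -2.51, adjusted p = 3.69e-05), Rpl26 lower at 36 h (-2.09, adjusted p = 0.00202), and Rpl34 higher at 96 h (2.50, adjusted p = 0.00748). Of all tested genes 1.36%, 1.26%, and 0.669% were called in either direction at these times. All 3 calls are of genes with a near-identical copy that has its own row, and none is called for the sum of gene and copy. The Rpl26 libraries overlapped at 0 h. The call at 0 h ended without library 0 of either genotype, that at 36 h without library 1 of either, and that at 96 h without wild-type library 1 or either HMGN1-OE library, and 2 genes were called at 0 h without wild-type library 1. None was called when limma used no trend or no moderation, so that the standard error held the gene's own spread.

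The genotype differences stand against a spread between libraries that was wide at 0 and 96 h and narrow at 36 h. The median difference of a single HMGN1-OE library from a single wild-type library ranged from -0.77 to 0.61 at 0 h, from -0.67 to -0.41 at 36 h, and from -0.19 to 1.94 at 96 h. Between the pair of wild-type libraries the medians lay 0.86 apart at 0 h, 0.21 apart at 36 h, and 1.31 apart at 96 h, and the HMGN1-OE medians lay 0.52, 0.061, and 0.82 apart at these times. At 36 h the libraries of 77 genes did not overlap, which was true below of 84.4% of all tested genes. Centred on the median gene, the medians were 0.06, 0.05, and 0.47, and no gene was called at any time by limma (0.104, 0.0521, and 0.0608% of all tested genes were), with 0, 0, and 29 of 78 genes at an unadjusted p under 0.05, where 5.64, 3.85, and 17.9% of all tested genes were. The 96 h libraries had centred medians of 0.04 to 0.90 over the 4 pairs. For the 74 genes other than Rpl26, Rpl30, Rpl34, and Rpl3l, the log2 difference at 96 h was between 0.56 (Rps27) and 1.06 (Rpl36a), and every adjusted p was 0.859.

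At 0 h the lowest after Rpl26 were Rpl30 (-0.45) and Rpl3l (-0.39) and the highest Rpl34 (1.53), Rpl21 (0.11), and Rps14 (0.10), none of them called. At 36 h the lowest after Rpl26 were Rpl30 (-1.06) and Rps27 (-0.93), a zinc finger protein of the 40S subunit, and the highest Rpl34 (0.84), Rpl3l (-0.28), and Rpl38 (-0.43). At 96 h the lowest were Rpl3l (-0.21), Rps27 (0.56), and Rps9 (0.67), a 40S assembly protein, and the highest after Rpl34 were Rpl26 (1.65, adjusted p = 0.0915) and Rpl30 (1.27, adjusted p = 0.859).

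For example, Rplp1 was, at 96 h, at 921 and 1890.1 FPKM with HMGN1-OE and at 1089.9 and 501 in the wild-type libraries, a log2 difference of 0.83 (SE 0.64, adjusted p = 0.859). HMGN1-OE library 0 lay below wild-type library 0, so the groups overlapped. At 96 h 3 of 78 genes did not overlap, all higher in HMGN1-OE cells, where 10.2% of all tested genes were. They were Rpl26, Rpl30, and Rpl34. Some marker sums differed between the genotypes at 96 h. The neutrophil markers summed to 67019 to 96423 FPKM in wild-type and 121106 to 172998 in HMGN1-OE libraries. S100a9 is listed near 0 in wild-type library 0, so whether these neutrophil sums differ cannot be told. The progenitor markers summed to 206 to 1014 and 1138 to 3021, without overlap. The 7 monocyte and macrophage markers found summed to 403 to 746 and 769.5 to 1334, without overlap. The 7 mast cell, basophil, and eosinophil markers summed to 1209 to 2455 and 297 to 913, also without overlap. Mcpt4 and Cma1 of the last list were under 1 FPKM in all 4 libraries. Their part in the genotype difference was not tested.

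The change from 0 to 96 h was less negative or more positive in HMGN1-OE cells for 78 of 78 genes, by a median log2 of 0.94 against 0.51 for all tested genes. Only Rpl26 passed the test of this difference (interaction 4.16, adjusted p = 6.08e-07), where 0.677% of all tested genes did. For the 74 genes the interaction was between 0.67 and 1.23 with an adjusted p of 0.81. The median of 78 genes was 1.59 without wild-type library 0 at 96 h and 0.28 without wild-type library 1, and centred on the median gene it was 0.41, with no gene called by limma where 0.0347% of all were, and 2 of 78 genes at an unadjusted p under 0.05 where 10.6% of all were. Without wild-type library 0 at 0 h, Rpl26 was not called either. From 0 to 36 h the median interaction was -0.47 against -0.41 for all tested genes, and limma called no gene, where 0.504% of the table was called, and none had an unadjusted p under 0.05.

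Ribosomal protein genes have many processed copies in the genome, and reads may be assigned to either. In GENCODE vM21, 74 of the 80 genes had at least 1 annotated transcript of another gene with at least 95% identity over at least 90% of the coding sequence. The median was 5 such copies, and Rpl21 had the most, 56. A copy had its own row in the table for 11 of the 80. The table's counting of reads that match several places is not given in the sources used here.

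Above 1 FPKM, the 3 genes with the widest relative range have copies that differ from them at 1 or 2 positions of the coding sequence. Over 438 coding bases Rpl26, on chromosome 11, and Gm15772, on chromosome 5, differ at C177T and T288C, with the base of the gene first and that of the copy last, counted from the A of the start codon. Over 354 bases Rpl34, on chromosome 3, and Rpl34-ps1, on chromosome 6, differ at T132C and C318G. Over 348 bases Rpl30, on chromosome 15, and Gm12191, on chromosome 11, differ at G96A. The 29 bases around each position are shown because a read within the coding sequence that misses the bases in capitals matches gene and copy alike. The windows of the genes are exonic coding sequence of GENCODE vM21 (GRCm38) on the coding strand, and those of the copies are the aligned bases of transcripts annotated there as processed pseudogenes.
Rpl26, coding bases 163 to 191: gttcaggttgttcgCggacactacaaagg
Gm15772: gttcaggttgttcgTggacactacaaagg
Rpl26, coding bases 274 to 302: ggcacaaccgtccaTgtgggcatccaccc
Gm15772: ggcacaaccgtccaCgtgggcatccaccc
Rpl34, coding bases 118 to 146: aaagcacctaaatcTgcatgtggcgtgtg
Rpl34-ps1: aaagcacctaaatcCgcatgtggcgtgtg
Rpl34, coding bases 304 to 332: atcgttgtgaaagtCttgaaggcacaagc
Rpl34-ps1: atcgttgtgaaagtGttgaaggcacaagc
Rpl30, coding bases 82 to 110: gtgctgggctacaaGcagactctgaagat
Gm12191: gtgctgggctacaaAcagactctgaagat

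Rpl26, a 60S protein near the exit tunnel, was listed at 224 and 18.2 FPKM in wild-type cells at 0 h, 28.0 and 142 at 36 h, and 0.0577 and 0.0285 at 96 h. In HMGN1-OE cells it was listed at 5.15 and 20.6, 22.6 and 8.66, and 1.71 and 2.94 FPKM. Wild-type library 0 at 0 h and library 1 at 36 h stood above the other 10. Its row was 0.012 to 11.9% of the median ribosomal protein gene. Gm15772, annotated as a processed pseudogene, was listed at 294 to 5816 FPKM, and the sum of the pair was 142 to 167% of that median in the 12 libraries. On the summed values the genotype differences of Rpl26 were 0.01 at 0 h (adjusted p = 1), -0.57 at 36 h (adjusted p = 0.495), and 0.88 at 96 h (adjusted p = 0.859), and the interaction to 96 h was 0.87 (adjusted p = 0.81).

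Rpl34 was listed at 84 and 2072 FPKM in wild-type cells at 0 h, 1811 and 500.2 at 36 h, and 288 and 21.3 at 96 h. In HMGN1-OE cells it was listed at 1639 and 898, 1617 and 1789.6, and 365 and 566 FPKM. The 3 wild-type libraries with little Rpl34, library 0 at 0 h and library 1 at 36 and 96 h, were those in which Rpl34-ps1 held most of the sum. Rpl34-ps1 was at 1447, 2696, and 151 FPKM there, and in HMGN1-OE library 0 at 96 h it was listed at 0.0463. Rpl34 alone was 4.47 to 86.4% of the median ribosomal protein gene, and with Rpl34-ps1 it was 81.5 to 93.2% in the 12 libraries. On the summed values its genotype difference at 96 h was 0.86 (adjusted p = 0.859), and its change from 0 to 96 h was -2.91 in wild-type and -2.03 with HMGN1-OE.

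Rpl30, a small 60S protein, was 1.70 to 7.13% of the median ribosomal protein gene alone and 37.3 to 57.7% with Gm12191. The sum was at 37.3 to 44.6% in the 6 wild-type libraries and at 48.0 to 57.7% in the 6 HMGN1-OE libraries, which did not overlap at any time. This split was noticed in the values and was not tested on that relative scale. On the deposited scale the genotype differences of the sum were 0.31 at 0 h (adjusted p = 1), -0.37 at 36 h (adjusted p = 0.596), and 1.22 at 96 h (adjusted p = 0.859). The division was steady for these other genes with a pseudogene row. Rps19 held 68.2 to 71.8% of its sum with Rps19-ps3, Rpl31 41.2 to 43.7% of that with Rpl31-ps12, Rps26 86.4 to 87.7% of that with Gm6654, and Rps15a 25.2 to 28.1% of that with its 2 copies. Rpl29 held 99.5 to 99.96% of that with Gm8580. Rpl30 held 4.56 to 18.1% of its sum. The division was thus unlike between libraries for Rpl26, Rpl34, and Rpl30 and alike for Rps19, Rpl31, Rps26, Rps15a, and Rpl29. It was not computed for Rpl21, Rpl36a, and Rplp2, whose copy with a row is annotated as protein coding. A further row, Rplp2-ps1, at 81.6 to 1377 FPKM, had no transcript of that name in GENCODE vM21, and its identity to Rplp2 was not computed. For Rpl21 that copy, BC004004, was at 29.6 and 57.9 FPKM in wild-type cells at 0 h and at 14.7 and 6.57 at 96 h, while Rpl21 was at 199 and 368 and at 44.2 and 17.5. Whether the differing bases vary between the cultures was not tested.

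**Figure D4:**
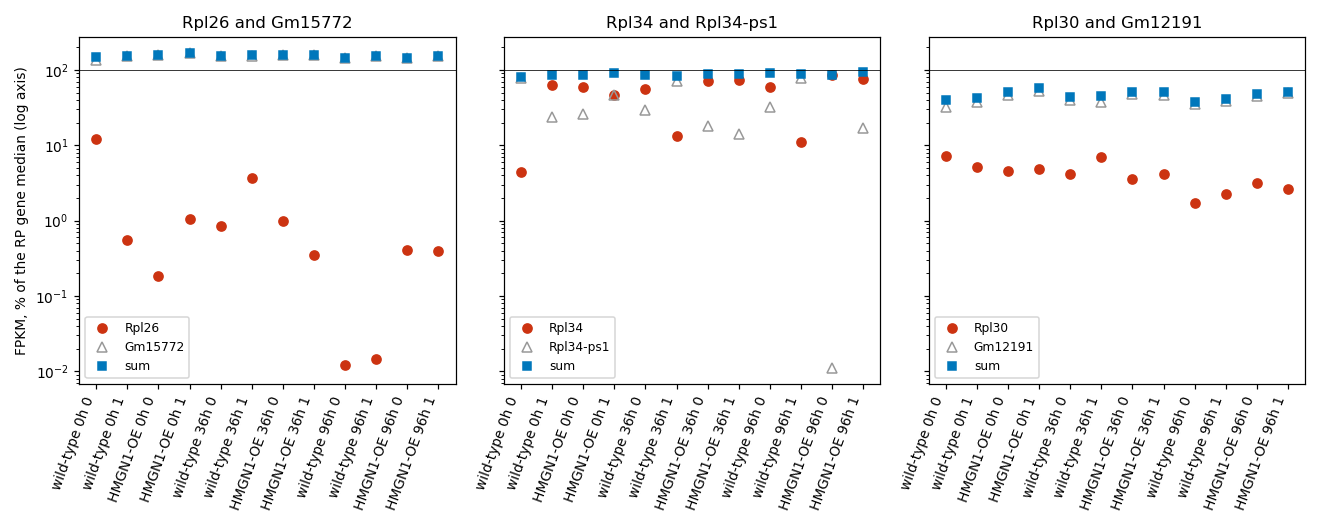
FPKM of Rpl26, Rpl34, and Rpl30 (red), of the near-identical copy (triangles), and of their sum (blue squares) in each library, as a percentage of the median ribosomal protein (RP) gene on a log axis. The sum lies at 142 to 167% for Rpl26 and 81.5 to 93.2% for Rpl34, while Rpl26 alone ranges from 0.012 to 11.9%. For Rpl30 it lies at 37.3 to 44.6% in wild-type and 48.0 to 57.7% in HMGN1-OE libraries.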

How the data were processed

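RNA from a fixed number of cells with ERCC spike-in RNAs was made into polyA libraries (TruSeq) and sequenced. The values the authors deposited are FPKM for each gene and library. Per the study's methods, the authors aligned with Bowtie, computed RPKM, and normalized by loess on the ERCC RNAs, while the submitters' processing notes name mm9, HISAT, and Cufflinks 2.0.0. Depth is unknown, so no counting error is given, and the number of libraries limits the precision. The loess step can shift whole libraries.

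Deposited FPKM were taken as log2(FPKM + 1), and the filter kept 11516 of 23309 genes, those that reached 1 FPKM or more in 2 or more of the libraries. limma 3.58.1 in R 4.3.3 (lmFit, eBayes with trend, 6 group means) gave two-sided p-values with Benjamini-Hochberg adjustment over all tested genes, called under 0.05. Prior degrees of freedom were infinite on the deposited scale, so a standard error there follows the trend with expression and holds nothing of the gene's own spread. Fold changes are on the log2(FPKM + 1) scale and understate those of low genes. Copies were found with blastn 2.17.0 among GENCODE vM21 transcripts, and figures were drawn with matplotlib 3.10.9.

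The genes and the lists were chosen with earlier results of these data known. Named were genes fixed by role, the 3 highest and 3 lowest changes of each comparison of genotypes and of 96 h with 0 h, the 3 highest and lowest levels, and each gene called between genotypes or left untested. Rps23, Rps20, the genes with a steady copy, the named genes of other lists, and those that deviated from the ribosomal protein median were named after their values were seen. Sums of FPKM of a gene and its copy, and fits without wild-type library 0 at 0 h and library 1 at 36 h, were chosen after seeing the data. Alternatives were another pseudocount, other filters, centring, quantile normalization, other variance models, and leaving out each library.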

Additional observations from a re-analysis of the deposited data

Results flagged for a closer look

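The change of Rpl26 from 0 to 96 h passed a test of the difference between the genotypes on the deposited scale only. The HMGN1-OE change minus the wild-type change was 4.16 on the log2 scale (limma, adjusted p = 6.08e-07, 2 libraries in each of the 4 groups). The wild-type change was -5.98 and the HMGN1-OE change -1.82. That standard error follows the trend with expression and holds none of the gene's own spread. The call was lost with no filter, centred on all tested genes (3.63, SE 1.88, adjusted p = 0.492) or on ribosomal protein genes (3.19, SE 1.61, adjusted p = 0.445), after quantile normalization (4.73, adjusted p = 0.305), with no trend or no moderation, and without wild-type library 0 at 0 h. The difference was between 2.38 and 5.94 when 1 library was left out, and for the sum of Rpl26 and Gm15772 it was 0.87 (adjusted p = 0.81). Groups of 2 libraries are too small for a search for single outlying libraries.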

How the results depend on the processing

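Called genes in the genotype comparisons went from 1 to 0 at 0 h, 36 h, and 96 h with no filter, centring on all tested or on ribosomal protein genes, quantile normalization, limma without trend, no moderation, and copies summed, and also with only the compared libraries at 0 and 36 h. Without wild-type library 0 at 0 h and library 1 at 36 h together they were 0, 0, and 2, and at 96 h 2 with a pseudocount of 0.1. The interaction to 96 h went from 1 to 0 under the 7 settings named first. Leaving out single libraries gave 0 to 2 called genes at 0 h, 0 to 1 at 36 h, 0 to 1 at 96 h, 0 to 1 for wild-type 36 h against 0 h, 0 to 1 for the interaction to 96 h, 23 to 77 for HMGN1-OE 96 h against 36 h, and 14 to 77 for HMGN1-OE 96 h against 0 h. With no filter the last pair were 29 and 28. For the 28 the share of all genes then tested was 24.8%, and for the 29 no share is given here. Centred on ribosomal protein genes the calls in either direction were 25 and 27 in wild-type and 19 and 23 in HMGN1-OE cells, since that scale removes the shared fall. For 96 h against 36 h, 8722 of 11516 tested genes were then called higher and 625 lower in wild-type, and 6163 and 872 in HMGN1-OE cells. Against 0 h it was 74.4% higher and 5.82% lower in wild-type, and 54.7 and 8.05% in HMGN1-OE cells.

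Centred on the tested genes, and after quantile normalization, the median log2 fold changes were 0.047 and 0.014 for the genotypes at 36 h, 0.042 and -0.013 for wild-type 36 h against 0 h, -1.20 and -0.93 for wild-type 96 h against 36 h, -0.82 and -0.62 for HMGN1-OE, -1.16 and -0.90 for wild-type 96 h against 0 h, -0.76 and -0.68 for HMGN1-OE, and -0.025 and -0.0087 for the interaction to 36 h. The interaction to 96 h was 0.25 after quantile normalization. Without both libraries named above wild-type 36 h against 0 h was -0.015 and the interaction to 36 h 0.065. Leaving out single libraries gave 0.083 to 0.95 for wild-type 36 h against 0 h, -0.21 to 0.32 for HMGN1-OE, -2.55 to -1.74 for HMGN1-OE 96 h against 36 h, -0.88 to -0.043 for the interaction to 36 h, and 0.28 to 1.59 for that to 96 h. Over genes with a mean of at least 1 FPKM and without the 10 highest ribosomal protein genes, the shares were 16.1, 16.5, 16.1, 16.3, 5.69, and 6.98% in the order wild-type and HMGN1-OE at 0, 36, and 96 h. Rpl26 at 0 h turned to 0.0085 when summed with its copy, and Rps27a in HMGN1-OE cells at 96 h to 0.094 after quantile normalization. Except where a sentence says so, the cause was not tested. No paired analysis was possible because the columns carry no replicate numbers that the labels share.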
